A study of Mus musculus with 6 samples.

Results

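Eicosanoid synthesis enzymes were examined in bone marrow-derived macrophages (BMDMs), which are macrophages grown from mouse bone marrow cells in M-CSF. The members are the 10 gene symbols Ptgs1, Ptgs2, Ptges, Hpgds, Tbxas1, Alox5, Alox5ap, Alox15, Lta4h and Ltc4s, named for their enzymatic roles, with earlier results of these data known. All 10 were found among the 23935 gene symbols of the deposited tables, and 9 of them passed the filter on low counts, which kept 16516 genes. The BMDMs came from 3 PKM2ΔMAC and 3 PKM2FL/FL mice, with 1 library of total RNA per mouse. Both genotypes carry the floxed Pkm2 allele, and PKM2ΔMAC mice also carry LysM-Cre, a Cre recombinase in the Lyz2 locus that acts in myeloid cells. PKM2FL/FL mice carry no Cre, and PKM2ΔMAC libraries held far less Lyz2 RNA, as given below. The presence of Cre, the lower Lyz2 and the loss of PKM2 therefore cannot be told apart. The comparison asks how the loss of PKM2, a pyruvate kinase isoform, in myeloid cells bears on these enzymes. The age of these mice is not given in the sources used here. By their description, all 6 cultures were differentiated for 7 days and then primed with LPS, a bacterial outer membrane component, at 10 ng/mL together with IFN-γ at 25 ng/mL for 16 h. No unprimed BMDMs were analysed here, so induction by priming is outside this comparison.

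Eicosanoids are short-lived lipid mediators made from arachidonic acid, which phospholipases release from membranes. Cyclooxygenases convert it to prostaglandin H, from which terminal synthases make prostaglandins and thromboxane. In a separate branch, 5-lipoxygenase, helped by its activating protein, makes leukotriene A, which becomes either the neutrophil attractant leukotriene B or the cysteinyl leukotrienes. Macrophages are a known source of both classes, and inflammatory stimuli are known to raise the inducible cyclooxygenase and the microsomal prostaglandin E synthase.

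Sequences before the start site are shown for 4 genes: the constitutive and the inducible cyclooxygenase, since they form a pair with a shared reaction and different control regions, Ptges, the only tested member whose libraries did not overlap between genotypes, and Alox5, the member that varied most between libraries. They were taken from RefSeq on GRCm38.p6, in which 8 of the 10 members were matched, and run 5′ to 3′ on the strand of the gene. Capitals mark the motifs that were searched on both strands. These were the TATA box TATAAA, the cyclic AMP response element TGACGT, the E-box written as CACGTG, the GC box GGGCGG and the C/EBP palindrome TTGCGCAA. The core of the HIF response element was searched in its A form, ACGTG, which overlaps the E-box, and in its G form, which reads GCGTG. The 250 bases of Ptgs1 lie at chr2:36230176-36230425 on the plus strand, those of Ptgs2 at chr1:150099781-150100030 on the plus strand, those of Ptges at chr2:30903298-30903547 on the minus strand and those of Alox5 at chr6:116461179-116461428 on the minus strand. The last line gives 30 bases of Ptgs2 just past its annotated start, at chr1:150100033-150100062.
Ptgs1: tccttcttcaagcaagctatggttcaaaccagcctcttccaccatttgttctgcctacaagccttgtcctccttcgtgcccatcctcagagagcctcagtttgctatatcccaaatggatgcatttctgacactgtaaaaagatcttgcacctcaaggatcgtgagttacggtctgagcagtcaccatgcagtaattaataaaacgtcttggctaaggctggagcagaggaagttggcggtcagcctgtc
Ptgs2: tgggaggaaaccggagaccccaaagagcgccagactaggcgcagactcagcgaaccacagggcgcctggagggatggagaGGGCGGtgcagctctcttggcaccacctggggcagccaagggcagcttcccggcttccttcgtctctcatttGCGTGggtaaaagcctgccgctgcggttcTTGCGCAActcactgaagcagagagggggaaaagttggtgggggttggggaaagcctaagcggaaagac
Ptges: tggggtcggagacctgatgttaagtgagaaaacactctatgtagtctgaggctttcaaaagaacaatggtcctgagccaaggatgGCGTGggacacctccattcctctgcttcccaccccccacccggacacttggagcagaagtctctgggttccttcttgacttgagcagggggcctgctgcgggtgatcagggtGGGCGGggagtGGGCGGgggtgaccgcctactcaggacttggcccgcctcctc
Alox5: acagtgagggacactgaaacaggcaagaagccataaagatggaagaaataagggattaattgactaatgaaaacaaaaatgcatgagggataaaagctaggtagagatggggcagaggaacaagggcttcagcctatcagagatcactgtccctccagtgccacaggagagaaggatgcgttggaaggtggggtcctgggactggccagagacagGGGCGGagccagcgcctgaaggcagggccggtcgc
Ptgs2 past the start: agtcaccactACGTCACGTGgagtccgctt

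Ptgs1 held none of these motifs in its window of 300 bases (250 before and 50 after the start). Ptgs2 held a GC box, a HIF core and the C/EBP palindrome before the annotated start, and a cyclic AMP response element that overlaps an E-box just past it. This E-box also holds the A form of the HIF core on each strand, and no other matched member held that form. Ptges held 2 GC boxes and a HIF core, and Alox5 held 1 GC box. The RefSeq start of Ptges used here lies inside the gene span given below. Of the other matched members, Tbxas1 held a TATA box, and Hpgds, Lta4h and Ltc4s held none of the motifs. Of 32851 mouse windows of the same length, 35.7% held the GC box, 32.4% the G form and 19.6% the A form of the HIF core, 13.6% the TATA box, 7.51% the cyclic AMP response element, 7.15% the E-box and 0.183% the C/EBP palindrome. These matches are descriptions of letters, placed by the annotated start of each gene. Neither binding nor the place where transcription starts in these cells was measured here.

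Total counts were between 49957449 and 54524651 per library. CPM, the counts on a gene relative to a common library total, were scaled by TMM factors. Genotypes were compared by quasi-likelihood in edgeR, and p-values were adjusted by Benjamini-Hochberg over the 16516 genes. They weigh the difference between genotypes against the spread between the mice of a genotype. Pkm, the targeted gene, averaged 1706 ± 8.08 CPM (SD, n = 3) without Cre and 1068 ± 125 CPM (SD, n = 3) with it (log2 fold change -0.68, adjusted p = 0.00913), and its isoforms were not separated. Lyz2, the gene of the Cre locus, averaged 17825 ± 860 CPM without Cre and 28.4 ± 3.80 CPM with it (SD, n = 3 each, log2 fold change -9.29, adjusted p = 8.53e-09). Each of the 9 macrophage markers other than Lyz2 had a mean of at least 106 TPM (a unit per gene length), led by C1qa, a complement component, at 2804 TPM. The list of 12 genes known to follow LPS or IFN-γ summed to between 91.5 and 95.9 CPM in PKM2FL/FL and between 90.3 and 101 CPM in PKM2ΔMAC, led by Irf1, an interferon-induced transcription factor, at 49.5 TPM, and some of its defining members were near 0 in both genotypes. Nos2, the inducible nitric oxide synthase, had between 2 and 26 counts per library, Il6 between 7 and 18, Il12b between 2 and 6, and Ido1 between 0 and 4. That the cultures were primed comes from their description, and how far they responded was not tested. Irf1 makes up more of this sum than the other genes together, and of the 10 genes tested 6 were higher and 4 lower in PKM2ΔMAC with 0 called by edgeR. Acod1, the itaconate-producing enzyme, was lower (log2 fold change -0.75, adjusted p = 0.334) and Tnf higher (0.38, adjusted p = 0.575) in PKM2ΔMAC without overlap between genotypes, with the highest value of Tnf, 19.5 CPM, in PKM2ΔMAC replicate 2 and between 12.0 and 12.2 CPM in the other PKM2ΔMAC libraries. Markers of stromal cells were also present, with Col1a1 at 1296 TPM. In these bulk libraries, fewer cells of a type and less RNA per cell cannot be told apart. PKM2ΔMAC replicate 2 stood apart from the other libraries: over all genes tested, the highest of the 6 values was in it for 24.9%. Log2 fold changes of the enzymes that rest on it are given with and without it.

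The enzymes spanned a wide range of levels. By mean TPM over the 6 libraries, the order was Hpgds (134), Alox5ap (125), Lta4h (43.7), Tbxas1 (43.3), Ptgs1 (30.9), Alox5 (12.9), Ptgs2 (7.55), Ptges (6.13), Ltc4s (4.96) and Alox15 (0.0943). The range over libraries separated Alox5ap from Lta4h and Ltc4s from Alox15, whereas all other neighbours in this order overlapped in range. Hpgds was above Alox5ap in 5 of 6 libraries and Lta4h above Tbxas1 in 4 of 6. The most abundant members were therefore the prostaglandin D synthase and the 5-lipoxygenase activating protein, which is a partner of an enzyme and not an enzyme itself. By mean TPM both lay above Mertk, a macrophage receptor for apoptotic cells, at 106 TPM. Mertk was the lowest of the 9 macrophage markers other than Lyz2, and the rest lay above both members. In PKM2ΔMAC replicate 3, Alox5ap (114 TPM) was below Mertk (115 TPM).

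Of the 9 enzymes tested, 0 were called at an adjusted p under 0.05, against a background of 0.412% of all genes tested (68 genes, 0.285% higher and 0.127% lower in PKM2ΔMAC). At an unadjusted p under 0.05 the count was also 0 of 9, with 9.83% over all genes (5.24% higher and 4.60% lower), and DESeq2 called 0 of 9, with 1.83% over all genes. The log2 fold changes ran from -0.37 for Ltc4s to 0.70 for Ptgs2, with a median of -0.014 beside -0.00021 over all genes tested. Libraries of the genotypes did not overlap for 1 of the 9 enzymes, Ptges, where 17.2% of all genes tested did not overlap. Ptges was higher in PKM2ΔMAC. Of all genes tested, 8.92% were higher without overlap and 8.32% lower without overlap.

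**Figure D1:**
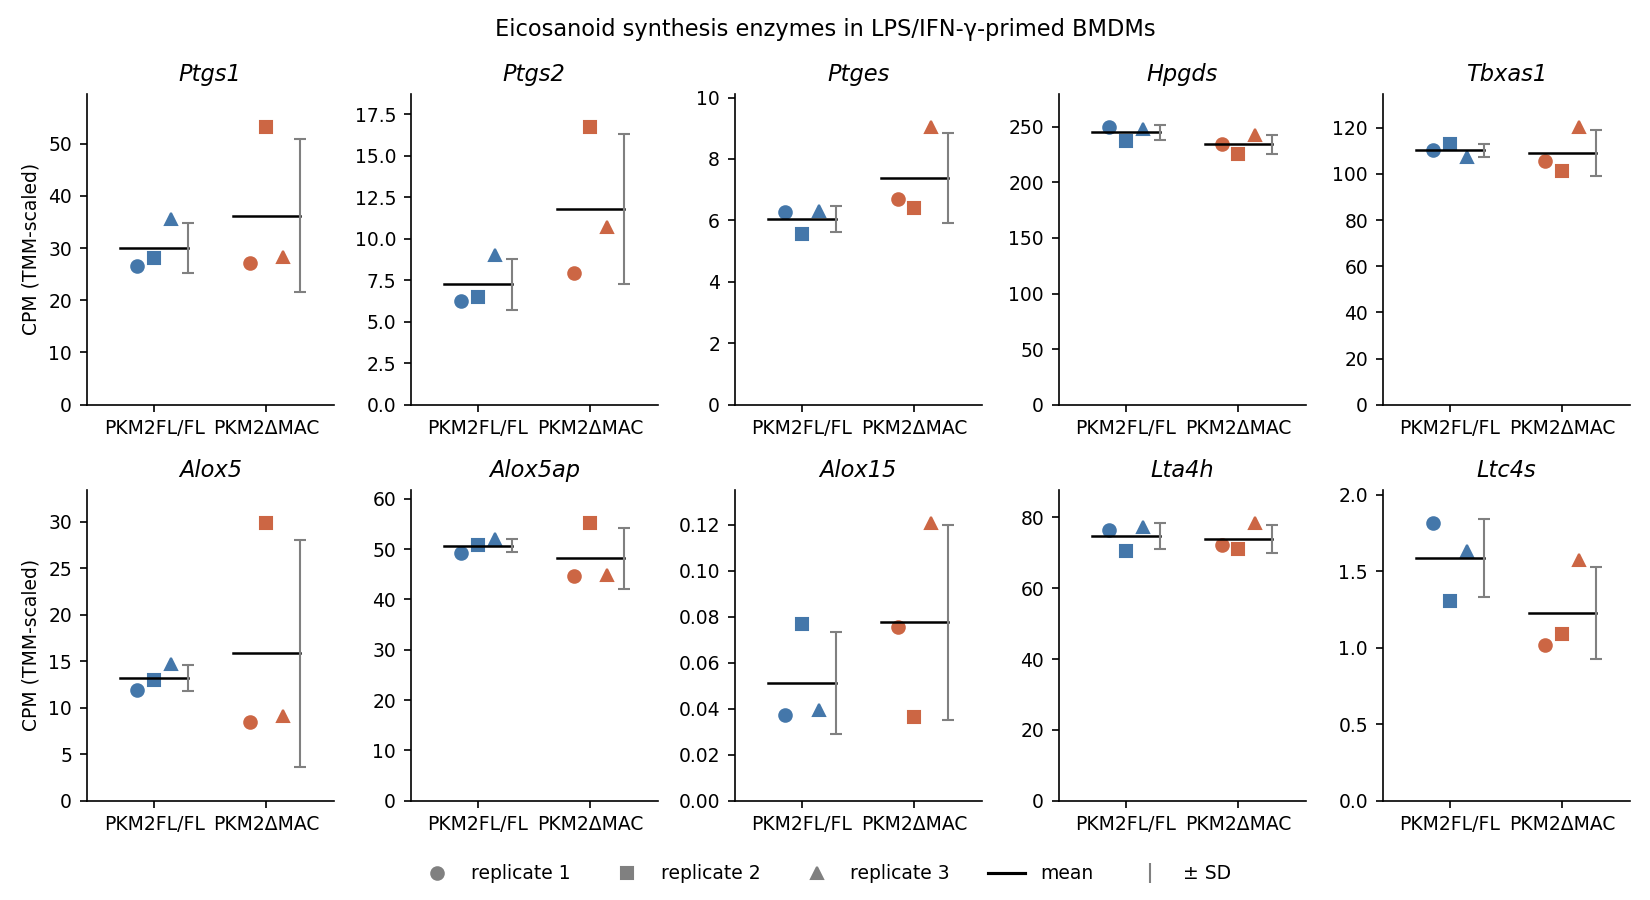
TMM-scaled CPM (y axis, linear from 0, a separate scale per gene) of the 10 enzymes in each library of PKM2FL/FL (blue) and PKM2ΔMAC (orange) BMDMs, with the mean (line) and SD (bar) of 3 libraries. PKM2ΔMAC replicate 2 (square) was the highest library for Ptgs1, Ptgs2, Alox5 and Alox5ap, and the levels of Hpgds, Tbxas1 and Lta4h stayed close across libraries.

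Ptgs2 encodes the inducible cyclooxygenase COX-2 and spans 150100031 to 150108227 of chromosome 1 on the plus strand (GRCm38). Its CPM was 6.24, 6.50 and 9.03 in PKM2FL/FL replicates 1 to 3 and 7.95, 16.7 and 10.7 in PKM2ΔMAC replicates 1 to 3. The genotypes overlapped, since PKM2FL/FL replicate 3 lay above PKM2ΔMAC replicate 1, and the remaining PKM2ΔMAC libraries were above all PKM2FL/FL libraries. Means were 7.26 ± 1.54 CPM and 11.8 ± 4.50 CPM (SD, n = 3 per genotype), with a log2 fold change of 0.70 (SE 0.30, 95% interval -0.037 to 1.44, adjusted p = 0.526). This was the largest positive value among the enzymes, and it did not pass the test. Without PKM2ΔMAC replicate 2 it was 0.36 (adjusted p = 0.478), and it stayed positive under all 17 alternatives, from 0.36 to 0.92, with adjusted p from 0.178 to 0.805.

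Ptgs1 encodes COX-1, the constitutive cyclooxygenase, and spans 36230426 to 36252272 of chromosome 2 on the plus strand. It was measured at 26.5, 28.2 and 35.5 CPM in PKM2FL/FL and at 27.2, 53.2 and 28.3 CPM in PKM2ΔMAC replicates 1 to 3. PKM2ΔMAC replicate 2 alone was above the range of the PKM2FL/FL libraries, and replicates 1 and 3 of this genotype lay within it. For Ptgs1 the log2 fold change was 0.27 (SE 0.31, 95% interval -0.53 to 1.07, adjusted p = 0.842) with all libraries and -0.11 (adjusted p = 0.784) without PKM2ΔMAC replicate 2, so that its sign depended on this library. Gm43621, on the opposite strand within Ptgs1, had at most 18 counts.

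Both cyclooxygenases were lower in PKM2ΔMAC replicates 1 and 3 than in replicate 2, but their balance differed less among these libraries. Of the summed TPM of Ptgs1 and Ptgs2, the share of Ptgs2 was 16.6%, 16.4% and 17.7% in PKM2FL/FL replicates 1 to 3 and 19.9%, 21.0% and 24.2% in PKM2ΔMAC replicates 1 to 3. All PKM2ΔMAC libraries were above all PKM2FL/FL libraries. The means were 16.9% ± 0.73 and 21.7% ± 2.24 (SD, n = 3 each), a difference of 4.81 percentage points (p = 0.10 in a two-sided exact permutation test, where 3 against 3 libraries allow no smaller p; 0.30 with Benjamini-Hochberg adjustment over the 3 ratios tested). Without PKM2ΔMAC replicate 2 the difference was 5.15 percentage points, so the larger share was also seen in the other libraries. The difference did not pass the threshold, which this number of libraries cannot reach.

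**Figure D2:**
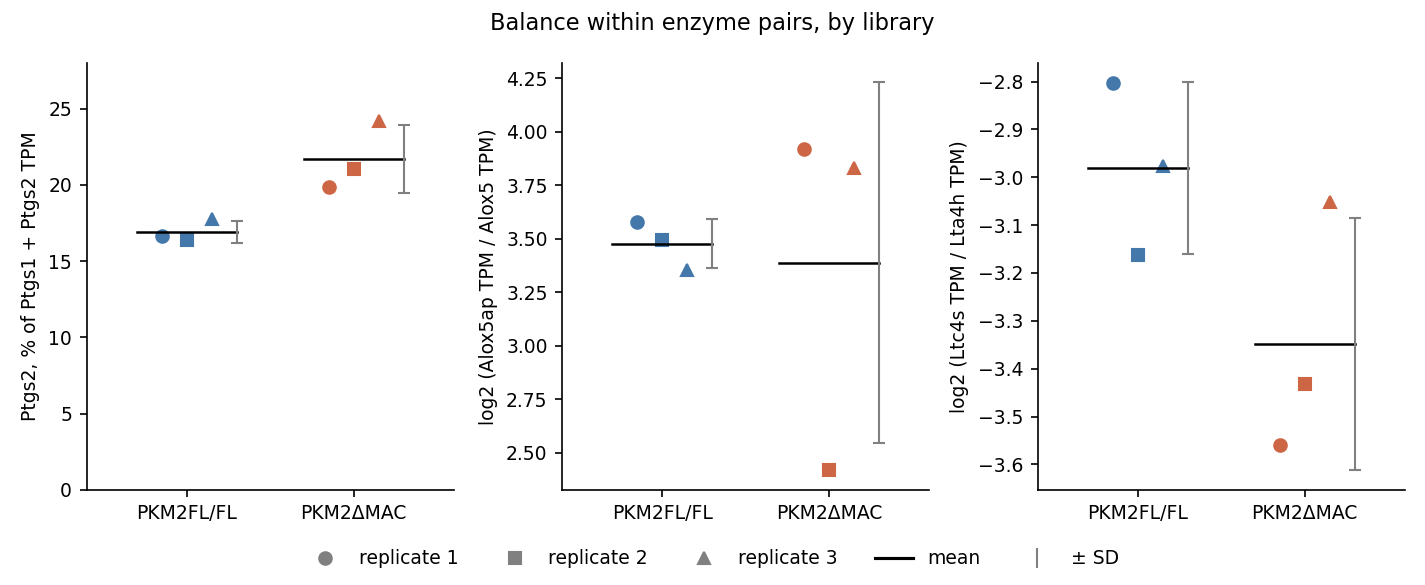
Per-library balance of 3 enzyme pairs in TPM: the share of Ptgs2 in percent (left, axis from 0), and the log2 ratios of Alox5ap to Alox5 (middle) and Ltc4s to Lta4h (right), with the mean (line) and SD (bar) of 3 libraries per genotype. The PKM2ΔMAC libraries lie between 19.9% and 24.2% Ptgs2, above the PKM2FL/FL libraries at 16.4% to 17.7%, and PKM2ΔMAC replicate 2 (square) lies below all others for Alox5ap to Alox5.

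Ptges encodes the inducible microsomal prostaglandin E synthase, which acts downstream of COX-2, and spans 30889471 to 30929863 of chromosome 2 on the minus strand. It had 6.27, 5.54 and 6.32 CPM in PKM2FL/FL and 6.69, 6.39 and 9.05 CPM in PKM2ΔMAC replicates 1 to 3. The genotypes did not overlap, by a margin of 6.32 to 6.39 CPM between PKM2FL/FL replicate 3 (321 counts) and PKM2ΔMAC replicate 2 (351 counts). Ptges had a log2 fold change of 0.29 (SE 0.15, 95% interval -0.057 to 0.63, adjusted p = 0.583), and the exact permutation test gave its smallest possible p of 0.10. PKM2ΔMAC replicate 3 carried much of this difference, which was 0.11 without it and 0.38 (adjusted p = 0.269) without PKM2ΔMAC replicate 2.

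Hpgds encodes the hematopoietic prostaglandin D synthase and spans 65117293 to 65144908 of chromosome 6 on the minus strand. Its CPM was 250.04, 237 and 248 in PKM2FL/FL and 235, 225 and 242 in PKM2ΔMAC replicates 1 to 3. The libraries overlapped and the spread was small, with a coefficient of variation (SD as a percent of the mean) of 2.77% and 3.67%. Its log2 fold change was -0.065 (SE 0.043, 95% interval -0.16 to 0.033, adjusted p = 0.678). On the TPM values it was 0.0070, beside a median of 0.063 over all genes of that fit. Without PKM2ΔMAC replicate 2 the log2 fold change from counts was -0.035 (adjusted p = 0.778). Gm17147, a processed pseudogene within Hpgds, had up to 271 counts. As a fold of the PKM2FL/FL level, the 95% interval runs from 0.893 to 1.02. Set beside Ptges, the TPM of Hpgds was 24.4, 26.2 and 24.0 times as high in PKM2FL/FL and 21.5, 21.6 and 16.4 times as high in PKM2ΔMAC replicates 1 to 3. This ratio was computed after its members' values were seen and was not tested.

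Tbxas1 encodes thromboxane A synthase and spans 38875404 to 39084585 of chromosome 6 on the plus strand. It had 110.4, 113 and 107 CPM in PKM2FL/FL (mean 110.2 ± 2.76, SD, n = 3) against 106, 101 and 120.4 CPM in PKM2ΔMAC replicates 1 to 3 (mean 109 ± 9.95, SD, n = 3). The PKM2ΔMAC libraries lay on both sides of the PKM2FL/FL range. Tbxas1 had a log2 fold change of -0.014 (SE 0.063, 95% interval -0.16 to 0.13, adjusted p = 0.968), and its sign varied with the setting. Hipk2, a protein kinase gene on the opposite strand, overlaps Tbxas1 with up to 11614 counts, and whether the counting used strand is not given in the sources used here.

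Alox5 encodes 5-lipoxygenase, the first enzyme of leukotriene synthesis, and spans 116410077 to 116461178 of chromosome 6 on the minus strand. Its CPM was 11.9, 13.03 and 14.7 in PKM2FL/FL replicates 1 to 3 and 8.52, 29.9 and 9.13 in PKM2ΔMAC replicates 1 to 3. PKM2ΔMAC replicate 2 was 3.39 times the mean of the other PKM2ΔMAC libraries, whereas replicates 1 and 3 were both below all PKM2FL/FL libraries. With all libraries the log2 fold change was 0.26 (SE 0.55, 95% interval -1.16 to 1.69, adjusted p = 0.926), within the spread between replicates. Without PKM2ΔMAC replicate 2 it was -0.58 (SE 0.11, 95% interval -0.82 to -0.34, adjusted p = 0.0209), and Alox5 was then the only enzyme of the 9 that passed the test, where 1.83% of all genes tested passed without this library, 0.823% as lower in PKM2ΔMAC. The direction for Alox5 in PKM2ΔMAC therefore rests on whether this library is counted. Under the other 16 alternatives the log2 fold change was between 0.025 and 0.56, with adjusted p from 0.800 to 0.993.

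Alox5ap encodes the 5-lipoxygenase activating protein (FLAP), a membrane protein that presents arachidonic acid to 5-lipoxygenase, and spans 149264767 to 149288153 of chromosome 5 on the plus strand. It was at 49.3, 50.8 and 51.9 CPM in PKM2FL/FL and 44.6, 55.2 and 44.8 CPM in PKM2ΔMAC replicates 1 to 3. The order of the PKM2ΔMAC libraries was that of Alox5, with replicate 2 above and replicates 1 and 3 below all PKM2FL/FL libraries, in a narrower range. The log2 fold change was -0.072 (SE 0.083, 95% interval -0.26 to 0.12, adjusted p = 0.836) and -0.18 (adjusted p = 0.105, SE 0.048) without PKM2ΔMAC replicate 2. It was -0.018 without PKM2ΔMAC replicate 1 and -0.022 without replicate 3, and ran from -0.18 to -0.0067 over the 17 alternatives. The log2 ratio of Alox5ap to Alox5 in TPM was 3.58, 3.50 and 3.35 in PKM2FL/FL replicates 1 to 3 and 3.92, 2.42 and 3.83 in PKM2ΔMAC replicates 1 to 3. Its difference of -0.087 was within the spread between libraries (two-sided exact permutation test, p = 1), and it was 0.40 without PKM2ΔMAC replicate 2 (p = 0.10, exact permutation test).

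Lta4h encodes leukotriene A hydrolase, which makes leukotriene B, and spans 93453411 to 93484875 of chromosome 10 on the plus strand. The Lyz2 locus that holds the Cre is on the same chromosome, 23.8 Mb away. Lta4h was at 76.4, 70.5 and 77.4 CPM in PKM2FL/FL and 72.2, 71.0 and 78.5 CPM in PKM2ΔMAC replicates 1 to 3. The ranges overlapped almost fully. The log2 fold change was -0.017 (SE 0.054, 95% interval -0.14 to 0.11, adjusted p = 0.953), and its sign varied with the setting.

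Ltc4s encodes leukotriene C synthase, which starts the cysteinyl leukotrienes, and spans 50236461 to 50238616 of chromosome 11 on the minus strand. Its counts were 97, 68 and 83 in PKM2FL/FL and 54, 60 and 78 in PKM2ΔMAC replicates 1 to 3, or 1.82, 1.31 and 1.63 CPM and 1.02, 1.09 and 1.57 CPM. PKM2ΔMAC replicates 1 and 2 were below all PKM2FL/FL libraries, and replicate 3 was within their range. For Ltc4s it was fitted at -0.37 on the log2 scale (SE 0.25, 95% interval -0.94 to 0.19, adjusted p = 0.678), the most negative value among the enzymes, with values from -0.59 to -0.25 over the 17 alternatives. The log2 ratio of Ltc4s to Lta4h in TPM was -2.98 ± 0.18 in PKM2FL/FL and -3.35 ± 0.26 in PKM2ΔMAC (SD, n = 3 each; two-sided exact permutation test, p = 0.20, or 0.30 with Benjamini-Hochberg adjustment over the 3 ratios). Gm26542, an antisense gene that overlaps Ltc4s, had up to 23 counts, a larger share of the counts of Ltc4s than such neighbours reach for the abundant enzymes other than Tbxas1.

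Alox15 encodes the murine 12/15-lipoxygenase, known from resident peritoneal macrophages, and spans 70344152 to 70352031 of chromosome 11 on the minus strand. It had 2, 4 and 2 counts in PKM2FL/FL replicates 1 to 3 and 4, 2 and 6 counts in PKM2ΔMAC replicates 1 to 3. These values lie around 3 counts, which correspond to between 0.0546 and 0.0604 CPM at these depths and cover counting error only. Alox15 did not pass the filter, and no fold is given, since a difference was not detectable at this depth. Gata6, which defines resident peritoneal macrophages, had a mean of 0.0916 TPM, and the list of 5 such markers, led by Cd5l, summed to between 105 and 183 CPM in PKM2FL/FL and to 183, 83.5 and 180 CPM in PKM2ΔMAC replicates 1 to 3.

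**Figure D3:**
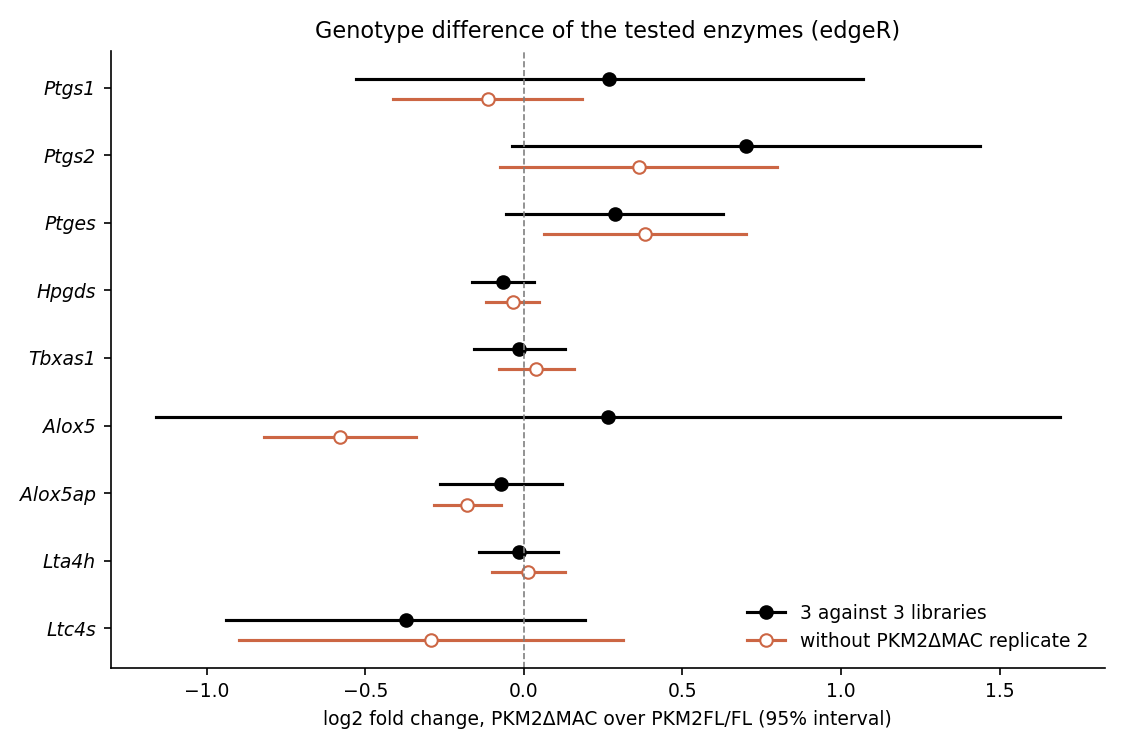
Log2 fold change of PKM2ΔMAC over PKM2FL/FL (x axis) with its 95% interval for the 9 enzymes tested, with 3 against 3 libraries (black) and without PKM2ΔMAC replicate 2 (orange, open). The interval of Alox5 runs from -1.16 to 1.69 with all libraries and from -0.82 to -0.34 without this library, and those of Hpgds, Tbxas1 and Lta4h are narrow around 0 in both.

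The enzymes differed among themselves in how much they varied between mice of 1 genotype. Among the 13077 genes with a mean of at least 1 CPM, the median coefficient of variation was 4.99% in PKM2FL/FL and 6.89% in PKM2ΔMAC. Alox5 reached 76.8% in PKM2ΔMAC, and 0.237% of these genes reached at least that value. Ptgs1 and Ptgs2 were at 40.7% and 38.1%, values reached by 2.80% and 3.40% of the genes. These PKM2ΔMAC values rest on replicate 2, at 29.9 CPM for Alox5, 53.2 for Ptgs1 and 16.7 for Ptgs2. Replicates 1 and 3 were at 8.52 and 9.13 CPM for Alox5, 27.2 and 28.3 for Ptgs1, and 7.95 and 10.7 for Ptgs2. Coefficients without replicate 2 were not computed. In PKM2FL/FL the coefficients of Alox5, Ptgs1 and Ptgs2 were 10.6%, 16.0% and 21.3%. Hpgds, Tbxas1 and Lta4h were between 2.51% and 9.11% in both genotypes.

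PKM2ΔMAC replicate 2 held the highest value of 4 of the 9 enzymes (Ptgs1, Ptgs2, Alox5 and Alox5ap), PKM2ΔMAC replicate 3 that of 3 (Ptges, Tbxas1 and Lta4h) and PKM2FL/FL replicate 1 that of 2 (Hpgds and Ltc4s). Over all genes tested, these libraries held the highest value for 24.9%, 18% and 14.7%, in that order. Relative to the mean of the other 5 libraries, PKM2ΔMAC replicate 2 was at 2.61 for Alox5, 2.07 for Ptgs2, 1.83 for Ptgs1 and 1.14 for Alox5ap, and at 0.743 to 0.946 for the remaining 5 enzymes tested. A ratio of at least 1.8 was reached by 3.03% and one of at least 1.5 by 6.48% of all genes tested, limits chosen after the values were seen. The summed marker lists of other cell types also varied between libraries, and the sums of the neutrophil and platelet lists were lower in this library than in the others of its genotype. Neutrophil markers summed to 90.2 CPM in it and to 122 and 170 CPM in PKM2ΔMAC replicates 1 and 3, against 20.3 to 49.5 CPM in PKM2FL/FL, with 8 of 8 tested markers higher in PKM2ΔMAC, 0 of them called and S100a9 the most abundant. One of these markers went the other way in this library: Mmp8 was at 2.74 times the mean of the other 5 libraries. Without Mmp8 the neutrophil sums were 112, 63.8 and 160 CPM in PKM2ΔMAC replicates 1 to 3 and between 14.1 and 37.1 CPM in PKM2FL/FL. Megakaryocyte and platelet markers, led by Pf4, summed to 88.6 CPM in it and to between 158 and 213 CPM in the other 5 libraries, and stromal markers, led by Col1a1, to 4911 CPM in it and between 4932 and 6230 CPM in the others. Among the stromal markers, Dcn was at 0.218 and Lum at 0.319 times the mean of the other 5 libraries in PKM2ΔMAC replicate 2. The rest of that list was at 0.842 to 0.991. Mast cells and basophils are a further known source of Alox5 and Ltc4s, and their markers summed to 8.41, 9.39 and 9.55 CPM in PKM2FL/FL and 11.4, 11.9 and 7.94 CPM in PKM2ΔMAC replicates 1 to 3, the highest sum being in PKM2ΔMAC replicate 2. This order rests on Mcpt8, without which the sums were 9.65, 7.34 and 7.23 CPM in PKM2ΔMAC replicates 1 to 3 and between 6.41 and 7.27 CPM in PKM2FL/FL. Mcpt8, a basophil protease and the most abundant of them in TPM, had 1.14, 2.98 and 2.40 CPM in PKM2FL/FL and 1.73, 4.61 and 0.705 CPM in PKM2ΔMAC replicates 1 to 3. In PKM2ΔMAC replicate 2 it was at 2.57 times the mean of the other 5 libraries, beside 2.61 for Alox5 and 0.743 for Ltc4s, whereas the other tested genes of this list did not rank alike, with 0.405 for Cpa3, 0.818 for Kit, 1.05 for Hdc and 1.34 for Gata2. Of the 9 listed genes in the tables, Fcer1a and Cma1 had at most 3 counts in every library. Eosinophil markers, led by Siglecf, summed to between 4.85 and 12.98 CPM (Epx and Il5ra had at most 3 counts in every library), dendritic cell markers, led by Clec9a, to between 3.98 and 4.41 CPM and B cell markers, led by Cd79b, to between 1.69 and 2.56 CPM. Macrophage markers other than Lyz2 summed to 8904 CPM in PKM2ΔMAC replicate 2 and to between 7914 and 8318 CPM in the others. The part of these differences in the values of the enzymes was not tested.

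**Figure D4:**
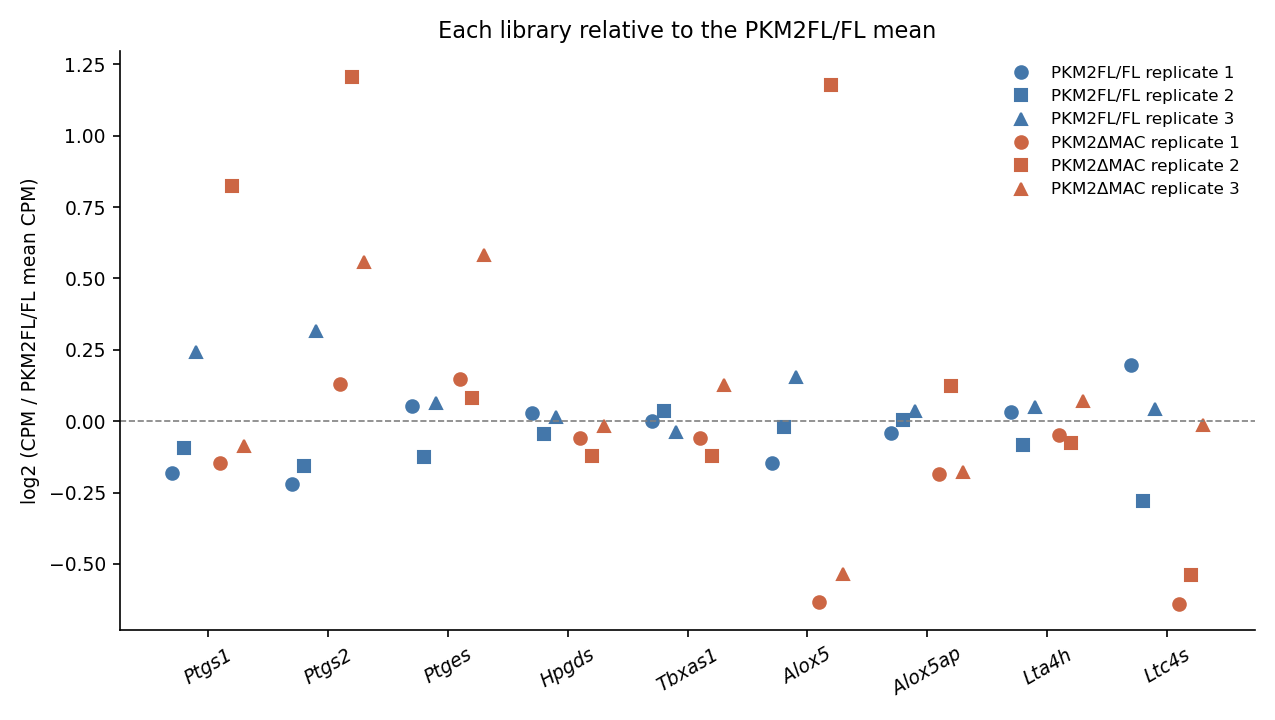
Log2 ratio of each library's CPM to the mean of the 3 PKM2FL/FL libraries (y axis) for the 9 enzymes tested, with PKM2FL/FL in blue and PKM2ΔMAC in orange and the replicate number as the symbol. PKM2ΔMAC replicate 2 (orange square) lies above all other libraries for Ptgs1, Ptgs2 and Alox5, and replicates 1 and 3 lie below PKM2FL/FL for Alox5 and Alox5ap.

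Other genes of the pathway, taken from a list written by role, were examined to place the enzymes among their substrates, partners and receptors. Of 71 symbols listed, 65 were in the tables and 57 were tested. Of these, 0 were called by edgeR, beside 0.412% of all genes, with 30 higher and 27 lower in PKM2ΔMAC and a median log2 fold change of 0.030 beside -0.00021 over all genes tested. At an unadjusted p under 0.05 there were 12 of 57 (8 higher and 4 lower), a larger share than the 9.83% of all genes. This difference in share was not tested, and the list was chosen with earlier results of these data known. Libraries of the genotypes did not overlap for 11 of 57, beside 17.2% of all genes. DESeq2 called 1 of 57, Fpr2, beside 1.83% of all genes, a share near the background.

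Among phospholipases and genes of arachidonate handling, 0 of 16 tested were called. Anxa1, whose product annexin A1 restrains phospholipase A2, was the most abundant at 962 TPM, followed by Pla2g7, a hydrolase of platelet-activating factor, at 539 TPM. Their log2 fold changes were 0.13 (adjusted p = 0.884, SE 0.20) and 0.11 (adjusted p = 0.645, SE 0.063), and without PKM2ΔMAC replicate 2 that of Anxa1 was 0.30 (adjusted p = 0.537). The smallest unadjusted p of the group was that of Pla2g2d, a secreted phospholipase, at 0.0770 to 0.256 CPM without and 0.264 to 1.05 CPM with Cre, with an adjusted p of 0.408. Pla2g2e, another secreted phospholipase, named after its values were seen, had the lowest log2 fold change of the group at -1.01 (adjusted p = 0.494, SE 0.43), with 7 to 24 counts per library and no overlap between genotypes.

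Of the 7 other prostanoid synthases tested, 0 were called. Ptges3, the cytosolic prostaglandin E synthase, also a co-chaperone, was at 155 TPM and Prxl2b, a prostaglandin F synthase, at 53.8 TPM, with log2 fold changes of 0.072 (adjusted p = 0.711) and -0.021 (adjusted p = 0.968), and of 0.023 and 0.066 without PKM2ΔMAC replicate 2. Cbr1, a carbonyl reductase that can convert prostaglandin E, had 33.8, 32.8 and 33.8 CPM in PKM2FL/FL and 30.9, 26.1 and 29.3 CPM in PKM2ΔMAC replicates 1 to 3. Its libraries did not overlap, and its log2 fold change of -0.22 (SE 0.068) had an adjusted p of 0.342.

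Of 10 other lipoxygenase and leukotriene genes tested, 0 were called. Cotl1, an actin-binding protein that also binds 5-lipoxygenase, was the most abundant gene of the whole list at 1179 TPM, with a log2 fold change of 0.13 (adjusted p = 0.400, SE 0.047), and it passed the test without PKM2ΔMAC replicate 2 (0.17, adjusted p = 0.0490). Ephx1, an epoxide hydrolase at 118 TPM, had a log2 fold change of -0.059 (adjusted p = 0.914), or -0.11 without that library. Mgst2, a microsomal enzyme that can make leukotriene C outside the Ltc4s route, was at 0.506, 0.500 and 0.630 CPM in PKM2FL/FL and 0.961, 0.838 and 1.47 CPM in PKM2ΔMAC replicates 1 to 3. All PKM2ΔMAC libraries were above the PKM2FL/FL libraries, with a log2 fold change of 0.99 (adjusted p = 0.341, SE 0.31), at a low level of 0.797 TPM.

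Of 9 genes of inactivation and export tested, 0 were called. Hpgd, the dehydrogenase that inactivates prostaglandins, was at 412 TPM, above the mean TPM of every one of the 10 synthesis enzymes. Its CPM was 165, 218 and 196 in PKM2FL/FL and 166, 272 and 136 in PKM2ΔMAC replicates 1 to 3, with the highest value again in PKM2ΔMAC replicate 2 and a log2 fold change of -0.0077 (adjusted p = 0.996, SE 0.29). This value near 0 rests on that library, and without it the log2 fold change was -0.35 (adjusted p = 0.536, SE 0.17). Abcc1, an exporter of cysteinyl leukotrienes, was at 60.4 TPM with a log2 fold change of 0.12 (adjusted p = 0.637), or 0.041 without PKM2ΔMAC replicate 2. Ptgr2, a prostaglandin reductase, had the smallest unadjusted p of the group, with a log2 fold change of -0.16 (adjusted p = 0.523, SE 0.073).

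Of 7 prostanoid receptors tested, 0 were called. Ptger4 and Ptger2, receptors for prostaglandin E that raise cyclic AMP, differed in sign. Ptger4, the most abundant at 31.0 TPM, had a log2 fold change of 0.17 (adjusted p = 0.460, SE 0.069). Ptger2 had 11.3, 9.99 and 10.9 CPM in PKM2FL/FL and 9.05, 6.36 and 9.29 CPM in PKM2ΔMAC replicates 1 to 3, without overlap, with a log2 fold change of -0.38 (adjusted p = 0.438, SE 0.15). Neither passed the test, and the difference between the receptors was not tested. Ptgir, the prostacyclin receptor, was at 11.7 TPM with a log2 fold change of -0.34 (adjusted p = 0.733). Without PKM2ΔMAC replicate 2, Ptgir was at -0.12 and Ptger2 at -0.22 on the log2 scale (adjusted p = 0.832 and 0.362).

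Of 8 receptors for leukotrienes and other lipid mediators tested, 0 were called by edgeR. Fpr2, a formyl peptide receptor that also binds annexin A1 and lipoxin, had 5.39, 5.12 and 4.13 CPM in PKM2FL/FL and 8.97, 13.4 and 7.37 CPM in PKM2ΔMAC replicates 1 to 3. All PKM2ΔMAC libraries were above the PKM2FL/FL libraries. It differed by 1.02 on the log2 scale (adjusted p = 0.213, SE 0.23) and it passed the test with DESeq2 (adjusted p = 0.000677), with a replicate block (0.99, adjusted p = 0.0464) and without PKM2ΔMAC replicate 2 (0.75, adjusted p = 0.0267). Fpr2 is also expressed by neutrophils, whose marker sums were higher in PKM2ΔMAC as given above. Within PKM2ΔMAC these sums were 122, 90.2 and 170 CPM in replicates 1 to 3, the reverse of the order of Fpr2. Mmp8 of that list was, like Fpr2, highest in replicate 2. The part of neutrophils in the value of Fpr2 was not tested. Cysltr2, a receptor for cysteinyl leukotrienes, was named after its values were seen, as the gene with the largest difference in size among the 57. It had 3.54, 1.58 and 1.75 CPM in PKM2FL/FL and 1.30, 0.219 and 0.403 CPM in PKM2ΔMAC replicates 1 to 3. All PKM2ΔMAC libraries were below the PKM2FL/FL libraries, with a log2 fold change of -1.83 (adjusted p = 0.451, SE 0.66) and of -2.03 (adjusted p = 0.0476) with a replicate block, where it passed the test, and of -1.41 (adjusted p = 0.412) without PKM2ΔMAC replicate 2. Cmklr1, the chemerin receptor, at 97.3 TPM, and Pparg, a nuclear receptor for lipid ligands, at 68.1 TPM, had log2 fold changes of -0.081 (adjusted p = 0.846) and 0.0031 (adjusted p = 0.994), or 0.021 and 0.047 without PKM2ΔMAC replicate 2.

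**Figure D5:**
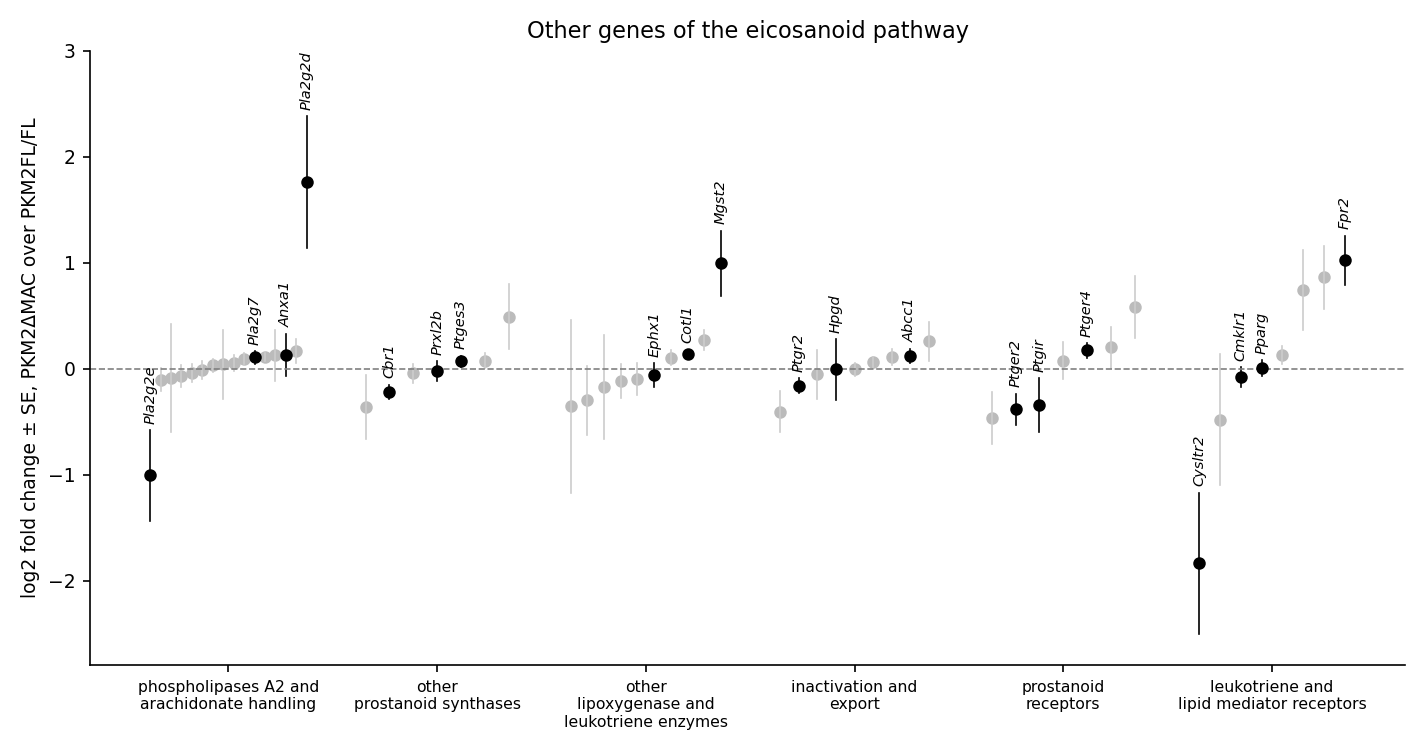
Log2 fold change of PKM2ΔMAC over PKM2FL/FL (y axis) with its SE for the 57 other pathway genes tested, ordered within 6 roles, with the genes described in black and the rest in grey. Most values lie near 0, and 0 of the 57 passed edgeR's test, with the extremes at 1.76 for Pla2g2d and -1.83 for Cysltr2.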

How the data were processed

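Libraries were made with a SMARTer kit. For 3 PKM2FL/FL and 3 PKM2ΔMAC libraries, the authors deposited a table of counts without normalization and a table of TPM values, both over 23935 gene symbols. The submitters' processing notes name FastQC 0.12.1, Trim Galore 0.6.10, HISAT2 2.2.1, SAMtools 1.19.2, Subread 2.0.6 and mm10, without roles. Annotation, strandedness and the source of the TPM gene lengths are not given in the sources used here. Columns were matched by genotype and mouse number.

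Counts were compared with edgeR 4.0.16 (R 4.3.3): filterByExpr on genotype, TMM (factors 0.980 to 1.04), robust quasi-likelihood fit with genotype as its only term, Benjamini-Hochberg over 16516 genes, called at an adjusted p under 0.05. SE was taken from the fold change and the F statistic. Ratios of TPM were compared with exact permutation tests, as was log2(CPM + 0.1) of single genes. Alternatives used DESeq2 1.42.0, limma-trend 3.58.1 on log2(TPM + 1) or log2(TPM + 0.1), other normalizations, filters and depth, a replicate block, and each library left out. The edgeR and limma functions were tested on simulated data.

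The members and lists were chosen with earlier results of these data known. The named genes are all members and, per role, the 2 highest in TPM, the 1 with the smallest unadjusted p and any called; of marker lists, the most abundant and any called, of which Itgam (log2 fold change 0.43, adjusted p = 0.00272) and Lyz2 (-9.29, adjusted p = 8.53e-09) were called. Other marker genes in the text (Mertk, Gata6, Nos2, Il6, Il12b, Ido1, Acod1, Tnf, Fcer1a, Cma1, Cpa3, Kit, Hdc, Gata2, Mmp8, Epx, Il5ra, Dcn and Lum), and Cysltr2 and Pla2g2e, were named after their values were seen. Positions are from GENCODE M21 on GRCm38. A chi-square check for a library deposited more than once found no such pair within a genotype (8.05 to 59.8 per degree of freedom). That each library is a separate mouse comes from the labels.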

Additional observations from a re-analysis of the deposited data

How the results depend on the processing

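The count of 68 genes called moved to 302 with DESeq2, to 120 without a filter on low counts, to 41, 32 and 36 on TPM with limma-trend (pseudocount 1, pseudocount 0.1, and pseudocount 1 without a filter), and to between 22 and 302 when 1 library was left out, the highest without PKM2ΔMAC replicate 2. Pkm lost the threshold on TPM, at -0.6089, -0.6095 and -0.6089 (adjusted p from 0.118 to 0.156), and without any one PKM2FL/FL library, with a range of -0.7739 to -0.622 over all libraries left out. Enzymes called stayed at 0 except without PKM2ΔMAC replicate 2, so that the range over libraries left out was 0 to 1. Other pathway genes called were 1 of 57 with DESeq2, beside 302 of all 16516 genes tested. They were 2 of 57 with the replicate block, beside 82 of 16516, and 0 to 2 of 57 with 1 library left out, beside 22 to 302 of 16516.

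Signs turned without PKM2ΔMAC replicate 2 for Ptgs1 (range over libraries left out -0.1142 to 0.4406), Alox5 (-0.5809 to 0.5648), Tbxas1 (0.039 without it, range -0.0898 to 0.039), Lta4h (0.014 without it, range -0.062 to 0.014) and the log2 ratio of Alox5ap to Alox5 (0.3983; range over libraries left out -0.3531 to 0.3983). On TPM they turned for Hpgds (0.007, 0.0071 and 0.007), Tbxas1 (0.0538, 0.0549 and 0.0538) and Lta4h (0.0543, 0.0554 and 0.0543), where the median of all genes was also shifted, by 0.046 to 0.067. The TPM of each library summed to between 999626 and 999691. Of these totals, Lyz2 took a mean of 47420 TPM in PKM2FL/FL and 79.4 TPM in PKM2ΔMAC. They also turned for Tbxas1 without PKM2FL/FL replicate 2 (0.0068) or PKM2ΔMAC replicate 1 (0.0086), and for Lta4h without PKM2FL/FL replicate 3 (0.0089). Ptgs2, Ptges, Alox5ap, Ltc4s, the Ptgs2 share and the ratio of Ltc4s to Lta4h kept their sign under all alternatives run. The cause of these changes was not tested.

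Replicate numbers were not taken to pair the samples: same-numbered deviations correlated at 0.080, 0.14 and 0.019. PKM2ΔMAC replicates 1 and 2 each correlated best with the PKM2FL/FL library of the same number. PKM2ΔMAC replicate 3 correlated best with PKM2FL/FL replicate 1 (0.067). With the replicate block 82 genes were called, of which 55 were among the 68, and 0 enzymes. Low counts limit Alox15 and Ltc4s, and 3 libraries per genotype limit the ratios.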
